A study of Mus musculus with 18 samples.

Results

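The 10 genes described here are Wnt ligands (Wnt4, Wnt5a, Wnt5b, Wnt11 and Wnt10b), the co-receptors Lrp5 and Lrp6, and the pathway genes Axin2, Lef1 and Tcf7. They were chosen by symbol, and each matched 1 of the 38243 genes counted. RNA was measured in 18 libraries from female mouse embryos of strain C57BL/6 (C57BL6/J in the study's methods) at embryonic day (E) 16.5. There were 3 Fgfr2+/S252W embryos, a heterozygous model of Apert syndrome, and 3 Fgfr2+/+ littermates. Mandibular bone, Meckel's cartilage (MC) and mandibular condylar cartilage were taken by laser capture microdissection. Each of the 6 groups of genotype and tissue held 3 libraries without pooling. The labels give a replicate number and name no embryo. Libraries of equal number within a genotype were taken to come from the same embryo, which is an inference. A captured region can hold more than 1 cell type, and fewer cells of a type cannot be told apart from less RNA per cell.

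Wnt proteins are secreted, lipid-modified ligands that bind Frizzled receptors on nearby cells. In the canonical branch, a Wnt joins Frizzled to LRP5 or LRP6, the complex that degrades β-catenin is held back, and β-catenin enters the nucleus to act with DNA-binding factors such as LEF1 and TCF7. AXIN2 is part of the degradation complex, is itself induced by the pathway and is widely used as its readout. WNT5A, WNT5B and WNT11 are known mainly for branches that do not need β-catenin, and WNT4, WNT5A and WNT5B are known in the growth plate for their parts in cartilage maturation. LRP5 and WNT10B are known for their parts in bone mass.

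In the authors' annotation of GRCm38 (mm10), Wnt4 lies on the plus strand at chr4:137277489-137299726, Wnt5a on the plus strand at chr14:28504750-28527447, Wnt5b on the minus strand at chr6:119432531-119544347, Wnt11 on the plus strand at chr7:98835112-98855195 and Wnt10b on the minus strand at chr15:98771753-98778150. Lrp5 lies on the minus strand at chr19:3584828-3686564 and Lrp6 on the minus strand at chr6:134446476-134566913. Axin2 lies on the plus strand at chr11:108920349-108950783, Lef1 on the plus strand at chr3:131110471-131224356 and Tcf7 on the minus strand at chr11:52252371-52283014. Fragments were counted over exons without regard to strand. Exons of Wnt11 share 364 bases with Gm8398 and those of Axin2 share 207 bases with Gm11670, where fragments of the overlapping genes cannot be told apart. The other 8 genes share no exon base with another gene.

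Promoters from RefSeq on GRCm38.p6 matched 7 of the 10 genes, and Wnt5a, Lrp5 and Lrp6 had no entry. The 250 bases before each start were searched on both strands for CTTTGA, core letters of the sites that TCF and LEF proteins bind. The letters occurred in 3 of the 14 windows of these genes, against 13.8% of all 32851 promoters, and in 3 of the 7 genes, against 15.8% of 27025 genes. They were in 1 of 3 windows of Wnt5b, 1 of 2 of Wnt11 and 1 of 4 of Lef1, and the other windows of these genes do not hold them. In Lef1 they occurred before an internal start, with the first base at positions -180 and -120 from it. Printed here, 5′ to 3′ on the strand of the gene, are promoters of 3 ligands with high levels in condylar cartilage and that of the feedback gene Axin2, with capitals for CTTTGA or its reverse complement TCAAAG. The window of Wnt11 is chr7:98834862-98835111, that of Wnt5b, before an internal start and outside the annotated exons, chr6:119449387-119449636, that of Wnt10b chr15:98778151-98778400 and that of Axin2 chr11:108920099-108920348.
Wnt11: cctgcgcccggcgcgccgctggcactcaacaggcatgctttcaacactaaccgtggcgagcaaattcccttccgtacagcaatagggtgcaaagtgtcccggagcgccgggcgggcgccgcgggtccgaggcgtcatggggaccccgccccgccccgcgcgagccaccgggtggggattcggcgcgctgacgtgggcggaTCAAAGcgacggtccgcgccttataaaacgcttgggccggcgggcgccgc
Wnt5b: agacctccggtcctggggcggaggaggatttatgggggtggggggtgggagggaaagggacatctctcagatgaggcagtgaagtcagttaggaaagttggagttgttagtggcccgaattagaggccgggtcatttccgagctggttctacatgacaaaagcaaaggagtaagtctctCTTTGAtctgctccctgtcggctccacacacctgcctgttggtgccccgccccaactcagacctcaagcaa
Wnt10b: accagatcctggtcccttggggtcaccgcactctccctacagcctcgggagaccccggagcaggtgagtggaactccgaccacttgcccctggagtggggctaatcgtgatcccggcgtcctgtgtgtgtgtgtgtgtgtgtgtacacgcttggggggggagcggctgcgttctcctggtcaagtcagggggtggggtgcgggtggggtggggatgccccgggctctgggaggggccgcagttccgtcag
Axin2: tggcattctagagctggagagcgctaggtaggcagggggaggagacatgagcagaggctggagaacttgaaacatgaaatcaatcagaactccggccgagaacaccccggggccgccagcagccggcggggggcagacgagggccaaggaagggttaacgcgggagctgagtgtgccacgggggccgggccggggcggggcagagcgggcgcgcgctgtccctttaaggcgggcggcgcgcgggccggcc
The first capital lay at position -50 in Wnt11 and at -71 in Wnt5b, and these windows of Wnt10b and Axin2 do not hold the letters. With the longer motif CTTTGAT, which is in 3.21% of all promoters, Wnt5b and Wnt11 still matched, 2 of the 7 genes against 3.72% of 27025 genes. These matches describe letters and not bound sites.

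Libraries held between 8218548 and 15585778 fragments on genes. Levels are given as FPKM, fragments scaled to exon length and to normalized library size, which allows comparison between genes. Fgfr2, whose mutant and normal alleles the counts do not separate, was at 41.9 ± 2.68 FPKM in Fgfr2+/S252W bone and 43.1 ± 8.98 FPKM in Fgfr2+/+ bone (SD, n = 3). In MC it was at 63.8 ± 16.8 and 80.2 ± 29.8 FPKM and in condylar cartilage at 26.1 ± 4.33 and 20.9 ± 2.34 FPKM, in the same order of genotypes. Chondrocyte markers (11 genes, among them Sox9, Col2a1 and Acan) summed to 6810 to 8130 FPKM in condylar cartilage and 39.5 to 108 FPKM in bone. In MC, the sum was 519 to 2250 FPKM in 5 libraries and 94.7 FPKM in Fgfr2+/+ MC replicate 1, which lies within the range of bone. That library held 111 FPKM of the osteoblast marker Ibsp, against 0.905 to 4.65 FPKM in the other MC libraries. Its Acan, which encodes the cartilage proteoglycan aggrecan, was at 13.3 FPKM, against 24.0 to 123 FPKM in the other MC libraries and at most 0.928 FPKM in bone, and its osteoblast marker sum of 1240 FPKM lay above the other MC libraries (518 to 912 FPKM) and below bone (8030 to 14400 FPKM). Its Sox9, at 3.64 FPKM, and Col2a1, at 41.6 FPKM, were near bone (3.73 to 5.53 and 7.31 to 60.6 FPKM). Its Runx2, at 63.5 FPKM, lay within bone (52.0 to 81.4 FPKM), and its Sp7, at 54.3 FPKM, lay below bone (67.1 to 108 FPKM). Some markers thus placed this library with bone, and others placed it between bone and the other MC libraries. Osteoblast markers (12 genes) summed to 5040 and 8050 FPKM in replicate 3 of the condylar cartilage of Fgfr2+/+ and Fgfr2+/S252W embryos, and to 2130 to 2650 FPKM in the other 4 condylar libraries. The share of fragments on Gm42418, a gene that overlaps ribosomal RNA sequence, was 24.1% to 39.4% in MC, 5.58% to 9.33% in bone and 10.9% to 20.2% in condylar cartilage, and 16024 to 17713 genes had a fragment in MC libraries against 18465 to 19852 in bone libraries, so that both measures separate MC from bone and move with the differences between these tissues, nuclear factors included. Their part in those differences was not tested. A fit without Gm42418 and the mitochondrial genes cannot test it, because it leaves library quality and the detection of other genes unchanged. In that fit 7, 6 and 7 of the 8 genes passed between bone and MC, bone and condylar cartilage, and condylar cartilage and MC. Its share of all genes called is not given here. Results are given with Fgfr2+/+ MC replicate 1 and replicate 3 of both condylar groups, the 3 libraries that stand apart, and, where it matters, without them. T cell markers (8 genes), which bear on Lef1 and Tcf7 because T cells also express them, summed to at most 3.82 FPKM in any library. That library was Fgfr2+/+ MC replicate 1, where 4 of the 8 were at 0, and which also held the most Tcf7 of the MC libraries. In the other libraries the sum was at most 1.61 FPKM. Cd3g was at 0 in every group, and other members were not. A part of T cells in the levels of Lef1 and Tcf7 was not tested.

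**Figure D1:**
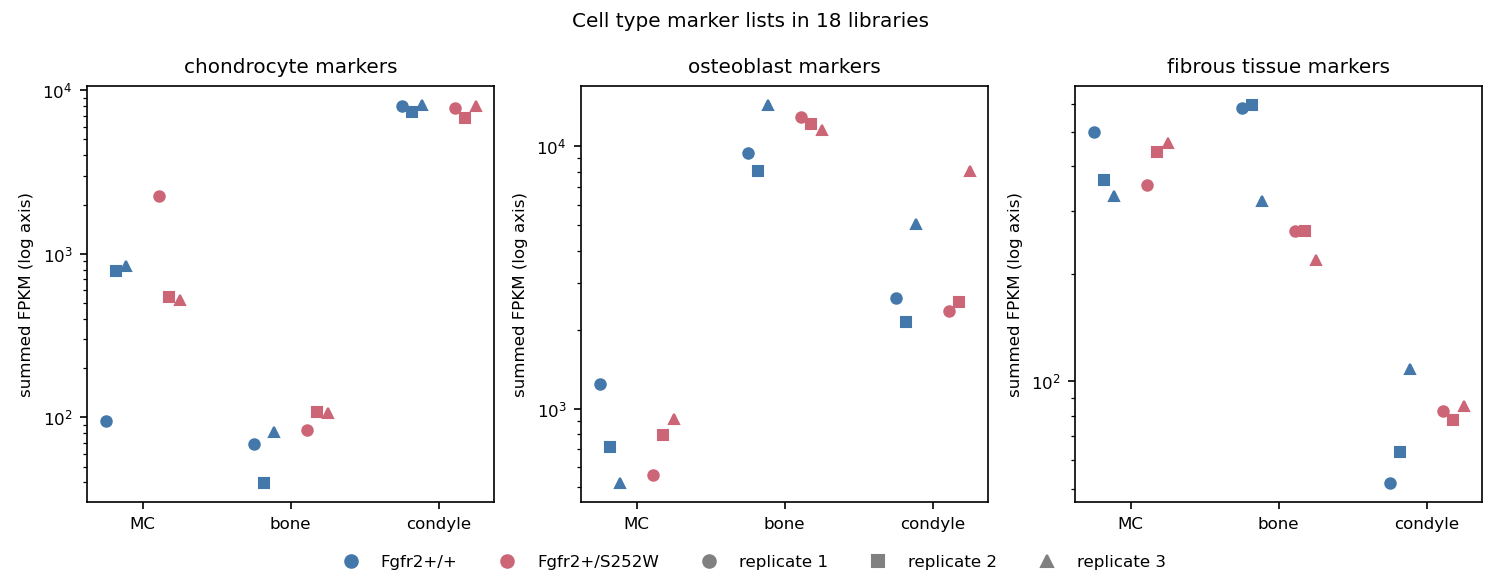
Summed FPKM (log axis) of chondrocyte, osteoblast and fibrous tissue markers in each of the 18 libraries, by tissue, with genotype as color and replicate number as symbol. Fgfr2+/+ MC replicate 1 lies with the bone libraries for chondrocyte markers, at 94.7 FPKM, and replicate 3 of both genotypes lies above the other condylar libraries for osteoblast markers.

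Across tissues, 4 of the 5 ligands, Wnt4, Wnt5b, Wnt11 and Wnt10b, had their highest levels in condylar cartilage. Wnt4 was at 12.5, 11.1 and 10.5 FPKM in Fgfr2+/+ condylar cartilage and at 13.9, 13.5 and 4.77 FPKM in Fgfr2+/S252W condylar cartilage. In bone Wnt4 lay between 0.463 and 0.671 FPKM, and in MC between 0 and 0.639 FPKM. The lowest condylar library, Fgfr2+/S252W replicate 3, thus stood above every bone and MC library, and it is one of the libraries with more osteoblast marker RNA. Wnt11 was lower in level and also highest in condylar cartilage, at 2.23, 1.92 and 1.94 FPKM in Fgfr2+/+ and 2.71, 2.93 and 1.24 FPKM in Fgfr2+/S252W condylar cartilage, against at most 0.0488 FPKM in bone and 0.0256 to 0.737 FPKM in MC. These are few fragments outside the condyle, 9 over the 6 bone libraries and 26 over the 6 MC libraries, against 576 over the 6 condylar libraries.

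Wnt4 and Wnt11 did not reach 1 FPKM in 50% of libraries and were dropped by the study's filter, so their fitted values are from a fit with edgeR's filterByExpr, which keeps a gene that reaches its minimum in 3 libraries. Wnt4 reached it in 6 of 6 bone, 3 of 6 MC and 6 of 6 condylar libraries, and Wnt11 in 0, 1 and 6 of 6, so Wnt11 was kept through the condylar libraries alone and its differences between tissues are given as values with no test. In that fit the log2 fold change of Wnt4 was -4.25 ± 0.36 (SE) for bone against condylar cartilage and 5.98 ± 0.68 for condylar cartilage against MC (limma adjusted p = 4.5e-09 and 3.2e-07). That of Wnt11 was -6.61 ± 0.68 and 3.99 ± 0.57, and 3.34 for condylar cartilage against MC without Fgfr2+/+ MC replicate 1. Background rates of calls in this fit were 50.4% of 14881 genes for bone against condylar cartilage, 55.8% for condylar cartilage against MC and 49.7% for bone against MC. Summed over libraries and scaled to depth, Wnt4 was 19.8-fold higher in condylar cartilage than in bone (95% interval 17.5 to 22.6, which covers counting error only). Wnt11 was 96.8-fold higher by the same sum, given without an interval. Between MC and bone, the ratio of summed and scaled Wnt11 fragments was 7.94, and it rests on 0 to 4 fragments per bone library and 1 to 14 per MC library. Fgfr2+/+ MC replicate 2 alone held 14 of the 26 MC fragments. The difference of Wnt4 between bone and MC was 1.73 ± 0.74 (adjusted p = 0.058), and it passed at 1.53 with the embryo as a replicate block and at 1.24 with edgeR (adjusted p = 0.019 and 0.024). It also passed with DESeq2, in the libraries of these tissues alone and without the 3 libraries that stand apart (1.22, 1.70 and 1.97, adjusted p = 0.0042, 0.021 and 0.0084). It did not pass with quality weights (adjusted p = 0.054) or in Fgfr2+/+ or Fgfr2+/S252W embryos alone (adjusted p = 0.2 and 0.22).

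Wnt5b was at 15, 14.3 and 16.9 FPKM in Fgfr2+/+ and 11.5, 10.8 and 16.8 FPKM in Fgfr2+/S252W condylar cartilage. In bone it ranged from 0.928 to 1.68 FPKM and in MC from 0.0721 to 1.82 FPKM, so that the condylar libraries stood apart and those of bone and MC overlapped. The log2 fold change of Wnt5b was -3.55 ± 0.27 (SE) for bone against condylar cartilage and 4.61 ± 0.46 for condylar cartilage against MC (adjusted p = 9.2e-10 and 4.2e-08). The direction was the same in 6 of 6 embryos each time, which any matching of these non-overlapping libraries would give. Between bone and MC it did not pass, at 1.06 ± 0.50 (adjusted p = 0.083). Fgfr2+/+ MC replicate 1 had the highest MC level, 1.82 FPKM, and without that library the difference between bone and MC was 1.76 (adjusted p = 0.008; 1.39 and 0.043 without Fgfr2+/S252W MC replicate 3) and that between condylar cartilage and MC was 5.32.

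Wnt10b was highest in condylar cartilage, lower in bone and lowest in MC. It had a median of 4.56 FPKM in condylar cartilage (range 2.90 to 5.66), 1.47 FPKM in bone (0.921 to 2.26) and 0.344 FPKM in MC (0.0965 to 1.15). Every condylar library stood above every bone library, while bone and MC overlapped through the 1.15 FPKM of Fgfr2+/+ MC replicate 1. The log2 fold change was -1.49 ± 0.24 (SE) for bone against condylar cartilage, 1.85 ± 0.45 for bone against MC and 3.34 ± 0.43 for condylar cartilage against MC (adjusted p = 2.8e-05, 0.0018 and 1.4e-06), each in 6 of 6 embryos. For the comparisons with condylar cartilage, whose libraries did not overlap with the others, any matching of libraries would give this count. MC libraries held 1 to 29 fragments of Wnt10b, so its level in MC is imprecise.

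Wnt5a, which is close to Wnt5b in sequence, had another order, with its highest levels in MC. Fgfr2+/+ MC held 5.84, 6.94 and 11 FPKM and Fgfr2+/S252W MC held 6.90, 10.5 and 11.7 FPKM, all above the bone libraries, which lay between 4.14 and 4.86 FPKM. Condylar levels were 2.54, 2.41 and 4.78 FPKM in Fgfr2+/+ and 3.39, 3.45 and 6.50 FPKM in Fgfr2+/S252W embryos. Replicate 3 of each genotype, the libraries with more osteoblast marker RNA, held the most. The log2 fold change of Wnt5a was -0.87 ± 0.19 (SE) for bone against MC and -1.24 ± 0.21 for condylar cartilage against MC (adjusted p = 0.00087 and 3.3e-05). Bone and condylar cartilage differed by 0.37 ± 0.20, which did not pass (adjusted p = 0.13), but the difference was 0.63 without the 3 libraries that stand apart (adjusted p = 0.0023), and it also passed without replicate 3 of Fgfr2+/S252W or of Fgfr2+/+ condylar cartilage alone (0.48 and 0.52, adjusted p = 0.041 and 0.038).

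Per length, Wnt5a was the most abundant of the 5 ligands in MC, at 8.83 ± 2.55 FPKM (SD over 6 libraries of both genotypes), and in bone, at 4.59 ± 0.336 FPKM. In bone it was followed by Wnt10b at 1.56 ± 0.503 and Wnt5b at 1.19 ± 0.264 FPKM, whose ranges overlapped, and then by Wnt4 and Wnt11. In condylar cartilage the order was Wnt5b at 14.2 ± 2.59, Wnt4 at 11.1 ± 3.35, Wnt10b at 4.36 ± 1.10, Wnt5a at 3.85 ± 1.55 and Wnt11 at 2.16 ± 0.611 FPKM. The ranges of each pair of neighbours in this order overlapped.

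**Figure D2:**
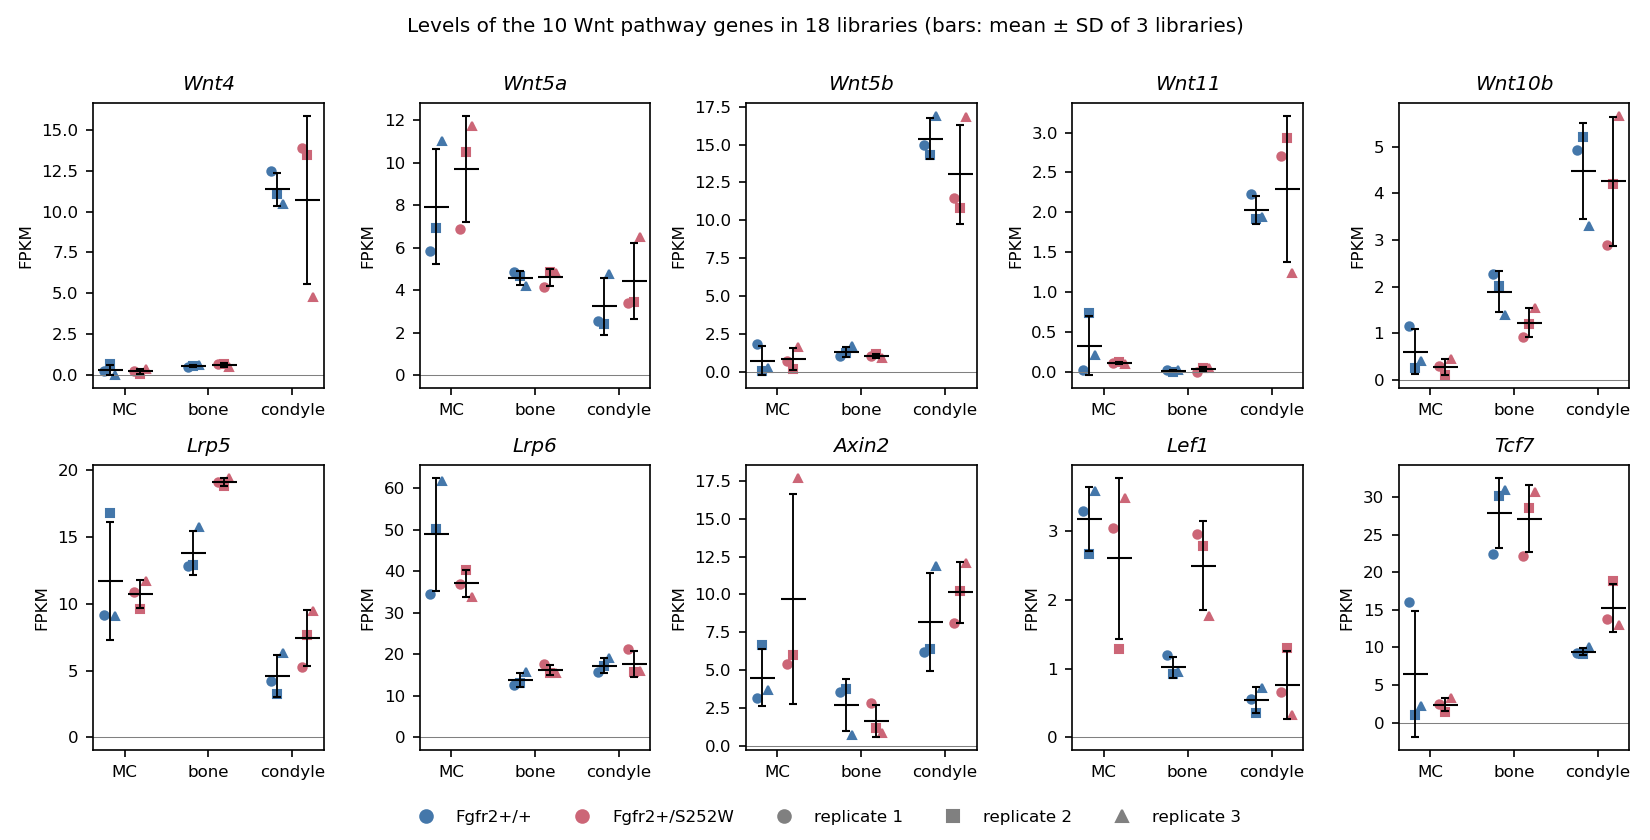
FPKM (linear axes, a scale for each gene) of the 10 genes in the 18 libraries, by tissue, with genotype as color and replicate number as symbol, and bars at the mean ± SD of the 3 libraries of each group. Wnt4, Wnt5b, Wnt11 and Wnt10b are highest in condylar cartilage, Wnt5a and Lrp6 in MC, and Lrp5 and Tcf7 in bone, where Tcf7 reaches 22.2 to 31.0 FPKM.

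The 2 co-receptors, which can each pair with Frizzled, had different orders. Lrp6 was at 34.6, 50.2 and 61.7 FPKM in Fgfr2+/+ MC and at 36.9, 40.3 and 33.9 FPKM in Fgfr2+/S252W MC. All 6 stood above the bone libraries (12.7 to 17.7 FPKM) and the condylar libraries (15.7 to 21.2 FPKM). For Lrp6 the log2 fold change was -1.48 ± 0.13 (SE) for bone against MC and -1.26 ± 0.13 for condylar cartilage against MC (adjusted p = 1.5e-08 and 5.8e-08). Bone and condylar cartilage differed by -0.22 ± 0.13, which did not pass (adjusted p = 0.17, 95% interval -0.48 to 0.05).

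Lrp5 was highest in bone, at 12.8, 12.9 and 15.7 FPKM in Fgfr2+/+ and 19.1, 18.8 and 19.4 FPKM in Fgfr2+/S252W embryos. MC libraries lay between 9.11 and 16.8 FPKM and condylar libraries between 3.28 and 9.44 FPKM. Bone thus overlapped with MC, through the 16.8 FPKM of Fgfr2+/+ MC replicate 2, but not with condylar cartilage. The differences were 0.58 ± 0.16 (log2, SE) for bone against MC, 1.54 ± 0.16 for bone against condylar cartilage and -0.96 ± 0.18 for condylar cartilage against MC (adjusted p = 0.0061, 1.5e-07 and 0.00013). Per length, Lrp6 stood above Lrp5 in every MC and condylar library, while in bone the 2 genes were at 15.1 ± 1.83 and 16.5 ± 3.09 FPKM (SD, 6 libraries) and overlapped.

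Axin2, the feedback gene, was lowest in bone. Its levels there were 3.58, 3.77 and 0.696 FPKM in Fgfr2+/+ and 2.83, 1.19 and 0.840 FPKM in Fgfr2+/S252W embryos, a spread in which replicates 1 and 2 of Fgfr2+/+ and replicate 1 of Fgfr2+/S252W were high. Condylar cartilage held 6.20, 6.37 and 11.9 FPKM in Fgfr2+/+ and 8.10, 10.2 and 12.1 FPKM in Fgfr2+/S252W embryos, all above bone. MC held 3.16, 6.65 and 3.69 FPKM in Fgfr2+/+ and 5.44, 5.99 and 17.7 FPKM in Fgfr2+/S252W embryos. For Axin2 the log2 fold change was -2.36 ± 0.37 (SE) for bone against condylar cartilage and -1.78 ± 0.41 for bone against MC (adjusted p = 2.1e-05 and 0.0013). Condylar cartilage and MC differed by 0.58 ± 0.36 (adjusted p = 0.18), and by 0.88 without the library at 17.7 FPKM, Fgfr2+/S252W MC replicate 3 (adjusted p = 0.048).

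Tcf7, which encodes the DNA-binding factor TCF1, was highest in bone, at 22.5, 30.2 and 31.0 FPKM in Fgfr2+/+ and 22.2, 28.6 and 30.7 FPKM in Fgfr2+/S252W embryos. Condylar levels were lower, between 9.11 and 18.9 FPKM. In MC, 5 libraries lay between 0.947 and 3.20 FPKM and Fgfr2+/+ replicate 1, the library with little cartilage marker RNA, was at 16.1 FPKM. Tcf7 was 3.07 ± 0.40 (log2, SE) higher in bone than in MC, 1.19 ± 0.24 higher in bone than in condylar cartilage and 1.88 ± 0.41 higher in condylar cartilage than in MC (adjusted p = 3e-06, 0.00038 and 0.00063). Without Fgfr2+/+ MC replicate 1 the differences from MC were larger, 3.87 for bone and 2.69 for condylar cartilage.

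Lef1, a relative of Tcf7 that binds the same letters, had a different order, with more RNA in MC than in condylar cartilage. MC held 3.29, 2.67 and 3.58 FPKM in Fgfr2+/+ and 3.05, 1.28 and 3.49 FPKM in Fgfr2+/S252W embryos. Condylar cartilage held 0.557, 0.355 and 0.721 FPKM in Fgfr2+/+ and 0.668, 1.30 and 0.329 FPKM in Fgfr2+/S252W embryos, from 9 to 53 fragments. The log2 fold change of Lef1 was -2.21 ± 0.34 (SE) for condylar cartilage against MC, -0.85 ± 0.26 for bone against MC and 1.36 ± 0.32 for bone against condylar cartilage (adjusted p = 1.1e-05, 0.01 and 0.0014). Calls of both differences from bone changed when the genotypes were fitted alone. Bone against MC was -1.64 in Fgfr2+/+ embryos (adjusted p = 0.0026) and -0.05 in Fgfr2+/S252W embryos (adjusted p = 0.92), and bone against condylar cartilage was 0.95 in Fgfr2+/+ embryos alone (adjusted p = 0.14). The difference of Lef1 between bone and MC did not itself differ between genotypes past the threshold, as given with the interactions.

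Of the 8 genes the filter kept, 7 differed between bone and MC (3 higher in bone, 4 lower), where 51% of 11469 genes were called. Between bone and condylar cartilage 6 differed (3 higher in bone, 3 lower), against 48.9% of all genes, and between condylar cartilage and MC 7 differed (3 higher in condylar cartilage, 4 lower), against 56.2%. The medians of the 8 genes were -0.14, 0.08 and -0.19 (log2), beside medians over all genes of 0.02, 0.00 and 0.01, in that order of comparisons. Without the 3 libraries that stand apart, 8, 7 and 7 of the 8 genes passed, where 56.3%, 51.2% and 58.8% of 11346 genes were called. All libraries of a tissue stood on one side of those of the other for 3 genes between bone and MC (24.9% of all genes), 5 between bone and condylar cartilage (31.9%) and 3 between condylar cartilage and MC (29.5%). With so many genes called between these tissues, counts of this size are not particular to the Wnt genes, and the sizes and orders of the single genes carry the description. In Fgfr2+/+ embryos alone, 4 of the 8 passed between bone and MC, where 34.0% of all genes were called, and Wnt5a, Lrp5 and Axin2 did not, at -0.71, 0.33 and -1.02 (adjusted p = 0.053, 0.29 and 0.2). Within 1 genotype, calls were also lost for Tcf7 between condylar cartilage and MC in Fgfr2+/+ (1.09, adjusted p = 0.11) and between bone and condylar cartilage in Fgfr2+/S252W embryos (0.83, adjusted p = 0.063), and for Lrp5 between condylar cartilage and MC in Fgfr2+/S252W embryos (-0.61, adjusted p = 0.058).

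**Figure D3:**
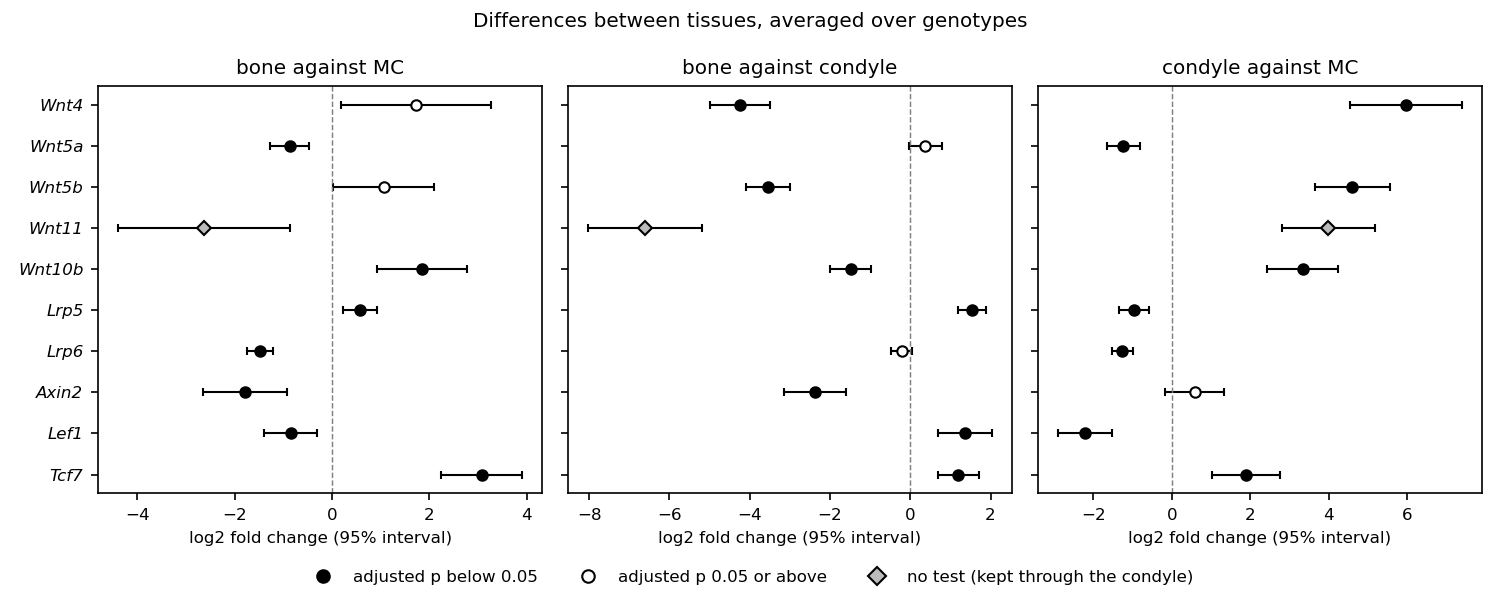
Log2 fold changes between tissues, averaged over genotypes, with 95% intervals, filled points at an adjusted p below 0.05 (limma), Wnt4 and Wnt11 from the fit with filterByExpr, and grey diamonds for Wnt11, which has no test. Wnt4, Wnt5b, Wnt11 and Wnt10b lie on the side of condylar cartilage in both of its comparisons, with the bone difference of Wnt11 at -6.61, and Tcf7 and Lrp5 lie on the side of bone.

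Between genotypes, none of the 10 genes passed the threshold in any tissue. In bone 0 of the 8 genes kept passed (limma, 0.0872% of 11469 genes called), with 2 at an unadjusted p below 0.05 (8.13% of all genes). In MC and in condylar cartilage 0 of 8 passed (0% of all genes called in each), with 0 and 1 at an unadjusted p below 0.05 (15.4% and 3.06% of all genes), and with filterByExpr 0 of 10 passed in condylar cartilage (0% of 14881 genes). The count was 0 in every tissue with edgeR and with DESeq2. In that order, these tools called 0.0349% and 0.157% of all genes in bone and 0.785% and 3.69% in MC. In condylar cartilage they called 0% and 0.0262%. Log2 fold changes of the 8 genes ran from -0.62 to 1.26 in bone, -1.02 to 1.02 in MC and -0.29 to 0.68 in condylar cartilage. Their 95% intervals together ran from -1.76 to 1.98, from -2.71 to 2.30 and from -0.82 to 1.56, in the same order.

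Lef1 had the largest genotype difference in bone. Its 3 Fgfr2+/S252W bone libraries held 2.96, 2.78 and 1.76 FPKM (2.50 ± 0.651, SD) and the 3 Fgfr2+/+ libraries 1.20, 0.921 and 0.950 FPKM (1.02 ± 0.155), without overlap. Fgfr2+/S252W bone thus stood 1.26 ± 0.34 (log2, SE) above Fgfr2+/+ bone, short of the threshold (limma adjusted p = 0.22). The difference passed in a fit of the 6 bone libraries alone (1.26, adjusted p = 0.048, with 1.14% of 12322 genes called) and with sample quality weights (1.33, adjusted p = 0.015, with 5.14% of 11469 genes called), but not with edgeR (adjusted p = 0.74) or DESeq2 (adjusted p = 0.27). In MC Lef1 was at 2.61 ± 1.17 FPKM in Fgfr2+/S252W and 3.18 ± 0.464 FPKM in Fgfr2+/+ embryos and the groups overlapped.

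Lrp5 was the other gene without overlap in bone, at 19.1 ± 0.335 FPKM in Fgfr2+/S252W and 13.8 ± 1.67 FPKM in Fgfr2+/+ embryos (SD, n = 3). Its log2 fold change was 0.47 ± 0.21 (SE, adjusted p = 0.58, and 0.046 with quality weights). A count of 2 of 8 genes whose groups do not overlap in bone stands beside 20.4% of all genes, in MC it was 0 of 8 beside 13.4%, and in condylar cartilage 1 of 8 beside 9.77%. Osteoclast markers (10 genes) summed to 815 to 1110 FPKM in Fgfr2+/S252W and 464 to 584 FPKM in Fgfr2+/+ bone, fibrous tissue markers (9 genes) to 219 to 264 and 319 to 595 FPKM, and erythroid markers (7 genes) to 407 to 774 and 1640 to 1960 FPKM. Chondrocyte markers summed to 84.3 to 108 and 39.5 to 81.7 FPKM. Fgfr2+/+ bone replicates 1 and 2 also stood apart in skeletal muscle markers (8 genes), at 69.4 and 58.5 FPKM against 0.964 to 8.60 FPKM in the other 4 bone libraries, and in the share of fragments on mitochondrial genes, at 36% and 34.8% against 20.4% to 23.6%. The share on Gm42418 was 5.58% to 6.49% in Fgfr2+/S252W and 8.57% to 9.33% in Fgfr2+/+ bone, without overlap. With Gm42418 and the mitochondrial genes left out, Lef1 was at 1.28 and Lrp5 at 0.49 (adjusted p = 0.19 and 0.53). The part of the marker differences in the values of Lef1 and Lrp5 was not tested.

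In condylar cartilage, Tcf7 was the gene without overlap, at 13.8, 18.9 and 13.0 FPKM in Fgfr2+/S252W and 9.22, 9.11 and 10 FPKM in Fgfr2+/+ embryos, with a log2 fold change of 0.68 ± 0.38 (SE, adjusted p = 1). Lrp5 differed by 0.68 ± 0.26 there (adjusted p = 1), with overlapping groups at 7.44 ± 2.10 and 4.59 ± 1.55 FPKM (SD, n = 3). The groups overlapped for the 4 ligands that were highest in condylar cartilage, Wnt4 at 10.7 ± 5.17 FPKM in Fgfr2+/S252W and 11.4 ± 1.01 FPKM in Fgfr2+/+ embryos, Wnt5b at 13.1 ± 3.28 and 15.4 ± 1.32 FPKM, Wnt10b at 4.25 ± 1.38 and 4.47 ± 1.03 FPKM, and Wnt11 at 2.29 ± 0.922 and 2.03 ± 0.176 FPKM. For Wnt4 the interval of the log2 difference was -0.78 to 0.46, for Wnt5b -0.82 to 0.23, for Wnt10b -0.80 to 0.45 and for Wnt11 -0.60 to 0.95. The sign for Wnt4 rested on Fgfr2+/S252W replicate 3, since the log2 difference was -0.16 with all libraries and 0.30 without that library.

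In MC, Axin2 differed by 1.02 ± 0.57 (log2, SE, adjusted p = 0.39), Lrp6 by -0.35 ± 0.18 (adjusted p = 0.35), Wnt10b by -1.02 ± 0.81 (adjusted p = 0.57) and Tcf7 by -0.90 ± 0.74 (adjusted p = 0.59). Tcf7 turned to 0.68 without Fgfr2+/+ MC replicate 1, and Axin2 was at 0.48 without Fgfr2+/S252W MC replicate 3. Wnt10b was at -0.28 without Fgfr2+/+ MC replicate 1 and at -0.59 without Fgfr2+/S252W MC replicate 2, and Lrp6 ran from -0.57 to -0.16 over single libraries left out. Wnt5b, at 0.47 with all libraries, was at 1.87 without Fgfr2+/+ MC replicate 1, at -0.46 without Fgfr2+/+ MC replicate 2 and at -0.18 without Fgfr2+/S252W MC replicate 3, so its direction is not settled.

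**Figure D4:**
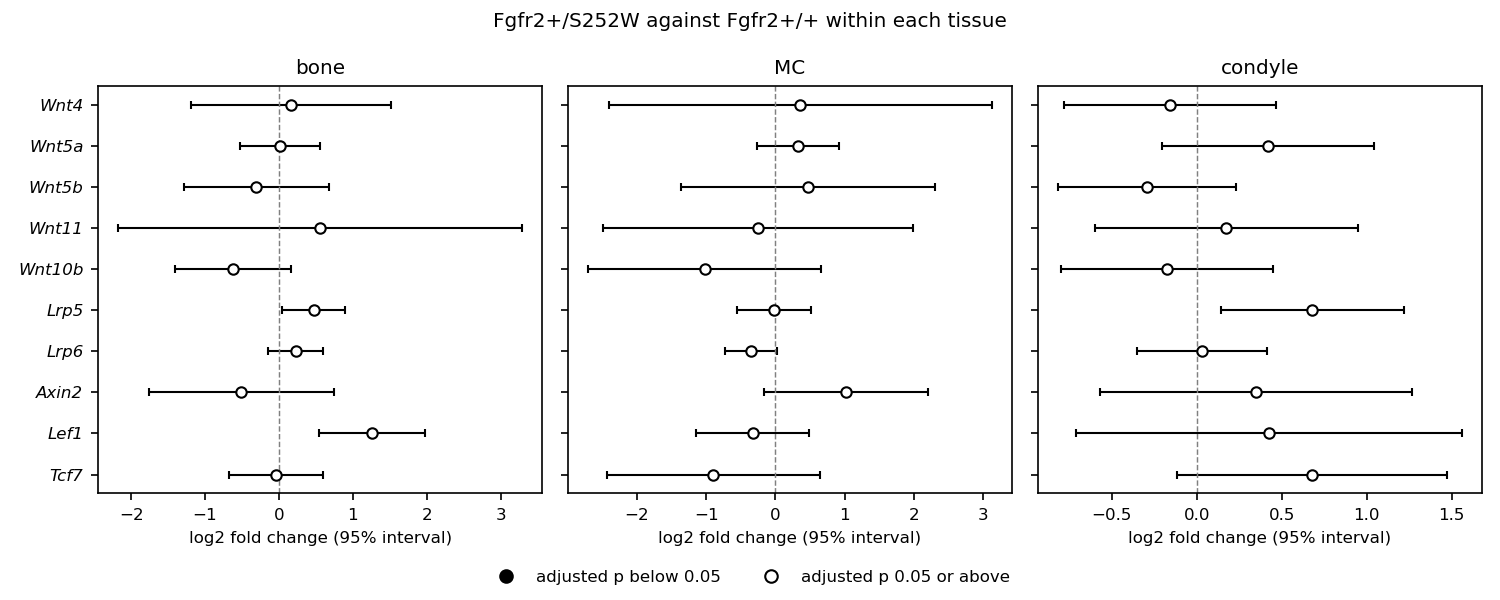
Log2 fold changes of Fgfr2+/S252W against Fgfr2+/+ embryos in each tissue for the 10 genes, with 95% intervals and open points at an adjusted p of 0.05 or above (limma), and Wnt4 and Wnt11 from the fit with filterByExpr. No point is filled, and in bone Lef1 lies at 1.26 and Lrp5 at 0.47.

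Whether the genotype difference depends on the tissue was tested by interactions. None of the 8 genes passed for bone against MC (0.0523% of all genes called), bone against condylar cartilage (0%) or condylar cartilage against MC (0%), with 2, 0 and 0 genes at an unadjusted p below 0.05 in limma (10.9%, 3.0% and 9.51% of all genes) and 0 genes with edgeR or DESeq2. These shares are those of limma, and those of edgeR and DESeq2 are not given here. The 2 genes, for bone against MC, were Lef1 at 1.59 ± 0.52 (log2, SE, adjusted p = 0.28) and Lrp6 at 0.58 ± 0.25 (adjusted p = 0.43). Axin2 was at -1.53 ± 0.82 (adjusted p = 0.51), at -2.40 without Fgfr2+/+ bone replicate 3 and at -0.98 without Fgfr2+/S252W MC replicate 3. For condylar cartilage against MC, Tcf7 was at 1.58 ± 0.83 (adjusted p = 0.56), and at -0.00 without Fgfr2+/+ MC replicate 1.

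Beyond the 10 genes, 85 further Wnt pathway genes were listed by role, of which 58 passed the filter. Between bone and MC 41 of the 58 were called (15 higher in bone, 26 lower), where 51% of all genes were called (3046 higher, 2807 lower). The 5 with the smallest p were Ctnnb1, which encodes β-catenin, at 1.79 (log2), the antagonists Sfrp2 at -3.05 and Wif1 at 4.33, the ligand Rspo3, which strengthens Wnt signals, at -3.19 and the R-spondin receptor Lgr6 at 4.22. Between bone and condylar cartilage 34 were called (21 higher in bone, 13 lower, against 48.9% of all genes, 2891 higher and 2712 lower), led by the kinase gene Gsk3b at -2.22, the gap junction gene Gja1 at 2.32, and the genes of the secreted factors Sfrp1 at -1.52, Frzb at -2.35 and Dkk3 at 2.44. Between condylar cartilage and MC 44 were called (14 higher in condylar cartilage, 30 lower, against 56.2% of all genes, 3261 higher and 3188 lower), led by Gsk3b at 2.26, Frzb at 3.42, Dkk3 at -2.68, the Wnt receptor Ryk at 1.36 and Lrp4, a relative of Lrp5 and Lrp6, at 2.41.

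The same shares of all genes, 51%, 48.9% and 56.2%, stand behind the counts by role. Among nuclear factors, 8 of 10 were lower in bone than in MC and 0 higher (median -0.82, log2), and in condylar cartilage 8 of 10 were lower than in MC and 2 higher (median -1.09). Of 10 secreted antagonists, 6 were higher in bone than in condylar cartilage and 3 lower (median 2.25). Of 13 receptors and co-receptors, 4 were higher and 5 lower in bone than in MC. Of 8 other feedback and target genes, 2 were higher and 3 lower in bone than in MC, and 2 were higher and 6 lower in condylar cartilage than in MC. Of the 14 other Wnt ligands 1 passed the filter. Between genotypes 0 of the 58 were called in any tissue (limma), with 6, 11 and 4 at an unadjusted p below 0.05 in bone, MC and condylar cartilage, against 8.13%, 15.4% and 3.06% of all genes. The count was not 0 in every fit. In bone it was 0 with edgeR (0.0349% of all genes called) and 1 with DESeq2 (Sfrp1, -0.80, adjusted p = 0.049, with 0.157% of genes called). It was 1 without the 3 libraries that stand apart (Sfrp1, -0.78, adjusted p = 0.03, with 1.06% of all genes called) and 1 of 60 in the bone libraries alone (Sfrp2, -1.17, adjusted p = 0.046, with 1.14% of genes called). With quality weights it was 5, among them Sfrp1 and Sfrp2 (-0.74 and -1.15, with 5.14% of genes called). In MC it was 1 with edgeR (Sfrp1, 1.13, adjusted p = 0.018, with 0.785% of genes called) and 2 with DESeq2 (Sfrp1 and Gja1, 1.14 and -0.86, with 3.69% of genes called). These genes are named after their values were seen.

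**Figure D5:**
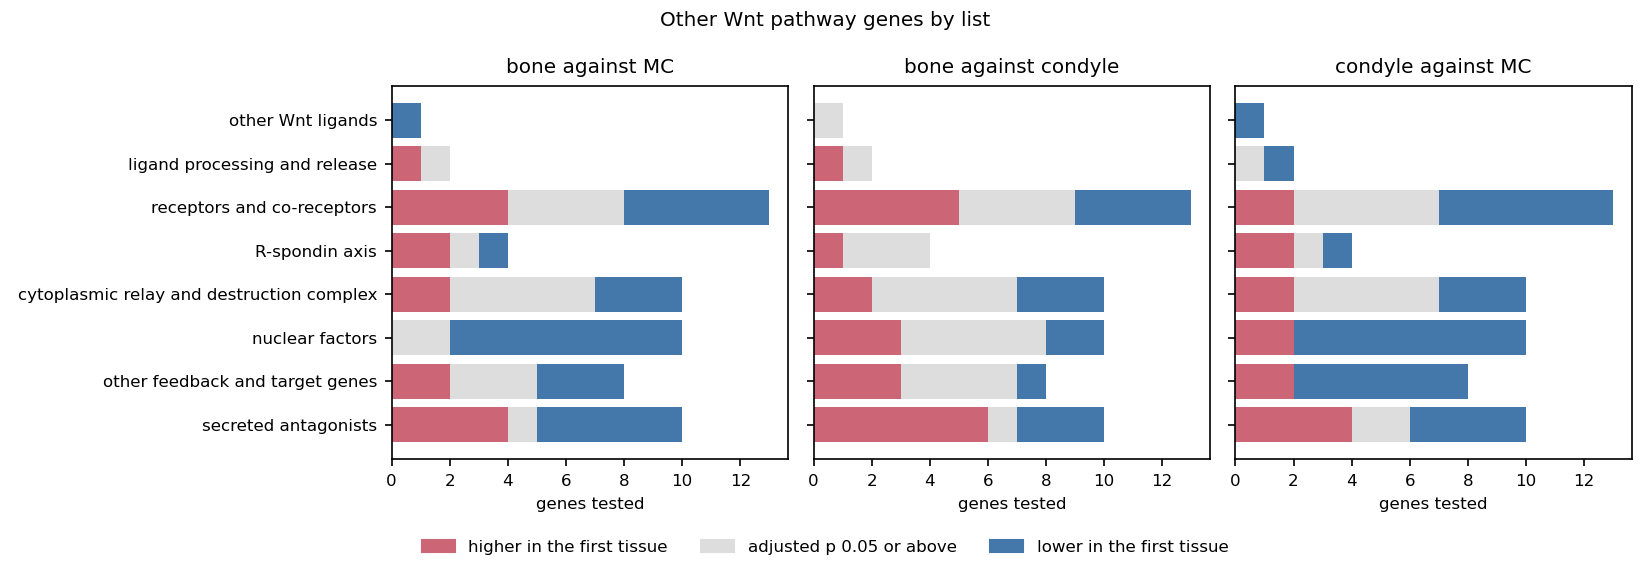
Number of other Wnt pathway genes (horizontal axis) in each list that were higher, lower or not called between tissues at an adjusted p of 0.05 (limma). Of 10 nuclear factors, 8 are lower in bone than in MC and 8 are lower in condylar cartilage than in MC, while secreted antagonists split in each comparison.

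Over the 18 libraries, the genes most like each member in log2 CPM (counts scaled to library size) among 14881 genes were ranked by Pearson's r, which mostly follows the tissue. Among the nearest to Wnt5b were Pelo and Fads3 (r = 0.961 and 0.957), and nearest to Wnt10b were Irx5, Gk5 and Stt3a (0.951, 0.951 and 0.949) and to Wnt5a Tle4, Ezr and Proser3 (0.942, 0.936 and 0.925). Nearest to Lrp5 were Fmnl3 and Trim56 (0.952 and 0.941), and to Lrp6 Blcap, Clmn and Il6st (0.976, 0.951 and 0.949). Nearest to Tcf7 were Rasa3, Hnrnpk and Me2 (0.954, 0.953 and 0.952), to Lef1 Sdc1, Zfp704 and Nuak2 (0.918, 0.905 and 0.902) and to Axin2 Chadl, Mia and Sertad4 (0.882, 0.875 and 0.868). For Wnt4 and Wnt11, which the filter dropped and which were added to this ranking after their values were seen, they were P3h2, Txndc11 and Pfkl (0.984, 0.982 and 0.976) and Foxa3, Gm43154 and the chondrocyte regulator Sox9 (0.955, 0.952 and 0.951). Among the members, Wnt5b and Wnt10b (r = 0.887) and Wnt4 and Wnt5b (0.867) were most alike, and Lrp6 and Tcf7 were most opposed (-0.868). The points share 3 tissues and 6 embryos, so these values describe the libraries and carry no test.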

How the data were processed

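The authors amplified RNA from laser-captured tissue, sequenced it from both ends, aligned it by STAR (build mm10) and assigned fragments to the exons of Ensembl genes by featureCounts 1.5.0-p1, unstranded. The deposited values are raw counts, with no normalization. Whether PCR duplicates were removed is not given in the sources used here. Groups were taken from the labels. That equal numbers within a genotype stand for the same embryo was inferred from the labels, and deviations of tissues with equal numbers from their group means correlated between -0.086 and 0.11. A library's own number ranked first in 12 of 36 checks. These values do not establish the pairing.

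The main model was limma 3.58.1 (R 4.3.3). A gene entered it if 50% or more of the libraries exceeded 1 FPKM. TMM factors and voom preceded a fit of 6 group means with eBayes (two-sided). The threshold was an adjusted p under 0.05 (Benjamini-Hochberg, every gene in the fit). Any adjusted p given without a tool comes from limma. FPKM used the exon length of the files. Spread within groups exceeds counting error for most genes, and genes with few fragments are imprecise. Alternatives were edgeR 4.0.16, DESeq2 1.42.0, other filters, normalizations, weights, blocks and subsets, and leaving out each library. All 10 genes were named, other pathway genes up to 5 per comparison by smallest p if past the threshold, and for each gene kept the 3 most correlated, of which 2 genes are not reported here. The members and lists were chosen with earlier results of these data known. The fit was tested on simulated counts.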

Additional observations from a re-analysis of the deposited data

Results flagged for a closer look

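The genotype difference of Sfrp1, which encodes a secreted Wnt antagonist and is not one of the 10 genes, differed between bone and MC by the interaction test. In bone Sfrp1 was at 3.38, 4.54 and 3.62 FPKM in Fgfr2+/S252W and 8.25, 5.70 and 6.10 FPKM in Fgfr2+/+ embryos. In MC it was at 12, 9.58 and 9.73 FPKM in Fgfr2+/S252W and 3.93, 5.86 and 4.63 FPKM in Fgfr2+/+ embryos. All Fgfr2+/S252W libraries thus lay below in bone and above in MC. Marker sums also separated these groups: in MC, macrophage markers (65.0 to 80.0 FPKM in Fgfr2+/S252W, 16.5 to 58.6 in Fgfr2+/+) and osteoclast markers (39.2 to 39.6 and 51.6 to 115), and in bone, fibrous (219 to 264 and 319 to 595), osteoclast (815 to 1110 and 464 to 584), erythroid (407 to 774 and 1640 to 1960) and chondrocyte markers (84.3 to 108 and 39.5 to 81.7). Their part in the result was not tested. The interaction was -1.97 ± 0.30 (log2, SE, limma adjusted p = 0.01), from -0.78 in bone (adjusted p = 0.14) and 1.18 in MC (adjusted p = 0.083), neither of which passed in this fit. The MC difference passed with edgeR (1.13, adjusted p = 0.018) and DESeq2 (1.14, adjusted p = 7.3e-05) and without Fgfr2+/+ MC replicate 2 (1.33, adjusted p = 0.021) or 3 (1.18, adjusted p = 0.047), and the bone difference with DESeq2, with quality weights and without the 3 libraries that stand apart (-0.80, -0.74 and -0.78, adjusted p = 0.049, 0.007 and 0.03). It was 1 of 6 genes past the threshold for this interaction. Leaving out 1 library at a time gave -2.10 to -1.79 (adjusted p = 0.0076 to 0.07). It no longer passed without Fgfr2+/S252W MC replicate 1 (-1.84, adjusted p = 0.07), and it was -1.79 without Fgfr2+/+ MC replicate 1, the library with little cartilage marker RNA (adjusted p = 0.049). With edgeR and DESeq2 it was -1.92 and -1.94 (adjusted p = 0.0098 and 2.6e-07). Groups of 3 libraries are too small for the test for a single library far from the others.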

How the results depend on the processing

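No called difference changed sign under any alternative. Leaving out 1 library at a time, 7 to 8 of the 8 genes kept passed between bone and MC, 6 to 7 between bone and condylar cartilage, 7 to 8 between condylar cartilage and MC and 0 between genotypes or in interactions. With all libraries, 51%, 48.9% and 56.2% of all genes were called between these tissues. The shares with a library left out are not given here. Between bone and MC 4 passed in Fgfr2+/+ embryos alone (34.0% of all genes). Between genotypes in bone 2 passed with quality weights (5.14% of all genes) and 1 in the 6 bone libraries alone (1.14%). The motif CTTTGAT was in 3.21% of promoters. Of 407 values of results that did not pass, under alternatives other than leaving out a library, 18 passed. Genotype differences that had not passed changed sign for Wnt4 in condylar cartilage (0.088 with quality weights and 0.24 without the 3 libraries that stand apart), Tcf7 in bone (0.027 with no filter) and in MC (0.68 without those 3 libraries). Over single libraries left out, genotype differences whose sign changed ran from -0.43 to 0.30 for Wnt4, -0.0037 to 0.49 for Wnt11 (-0.0022 without Fgfr2+/S252W replicate 1), -0.37 to 0.11 for Wnt10b, -0.11 to 0.11 for Lrp6 and -0.034 to 0.77 for Lef1 in condylar cartilage, from -0.055 to 0.085 for Wnt5a and -0.18 to 0.10 for Tcf7 in bone, from -0.46 to 1.87 for Wnt5b, -0.18 to 0.25 for Lrp5, -0.55 to 0.041 for Lef1 and -1.64 to 0.68 for Tcf7 in MC, and from -0.0044 to 2.32 for the interaction of Tcf7 between condylar cartilage and MC. The cause was not tested.

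Equal replicate numbers of the genotypes do not pair the libraries, since their deviations correlated between -0.15 and 0.28 and 5 of 18 checks ranked a library's own number first. With them as a replicate block, 0 of the 8 genes passed between genotypes, and Lef1 in bone was at 1.26 (adjusted p = 0.18). With the embryo as a replicate block, 7, 6 and 7 genes passed between tissues, and the only call that changed among the members was that of Wnt4 between bone and MC. The share of all genes called with that block is not given here. With no filter, the median of all genes was -0.36 for bone against MC, -0.16 for bone against condylar cartilage, -0.36 for condylar cartilage against MC and 0.15 for the genotypes in MC, so its values carry that shift. DESeq2 gave no p for Tcf7 in any comparison of tissues. Depth limits Wnt4 and Wnt11 outside the condyle. The alternatives for Wnt4 and Wnt11 and the set without 3 libraries were chosen after seeing the data.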
